A study of Mus musculus with 16 samples.

Results

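S100a8, S100a9, Ltf, Ngp, Retnlg, Lcn2 and Camp are genes of neutrophil alarmin and granule proteins, and their levels were read from RNA sequencing of mouse gastrocnemius muscle. They were chosen by symbol, as 7 of the 35415 genes in the count and FPKM tables, with the difference between the T and C groups of these libraries already known. Of the 7 genes, 6 were among the 14749 that passed the filter on low counts and entered the test, and Camp had too few counts to enter it. The mice were male wild type BALB/c, and the study asks what a tumor and treadmill training change in muscle. Mice without a tumor were either untrained (the C group) or trained (the E group), and mice with CT26 tumors were likewise untrained (the T group) or trained (the TE group). Each group had 4 libraries of polyA RNA, each from a different mouse, and T4 names the library of replicate 4 of the T group. CT26 is a colon carcinoma line from BALB/c mice, and it was placed under the skin of the left hind-limb region, while C and E mice received saline at that site under the same pentobarbital anesthesia. Training lasted 4 weeks, with 60 min of running at 14 m/min on 6 days of each week, in mice bought at 8 weeks of age, and the C and T mice stood on a treadmill that did not move. Which hind limb the sequenced muscle came from is not given in the sources used here, and the labels put all 16 libraries in batch 1.

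Neutrophils carry preformed proteins to inflamed tissue. S100a8 and S100a9 encode the subunits of calprotectin, which fills the neutrophil cytosol, and when released acts as an alarmin, a signal of damage that Toll-like receptor 4 recognises. Ltf (lactoferrin, which binds iron), Ngp (a cystatin-related granule protein), Camp (the precursor of the antimicrobial peptide cathelicidin) and Lcn2 (lipocalin 2, which binds bacterial iron carriers) are packed into the secondary granules. These granules form while neutrophils mature in the bone marrow, and most granule transcripts are low in circulating neutrophils, whereas alarmin transcripts persist. Retnlg encodes a secreted resistin-like protein of neutrophils and marrow. Lcn2 is also made by other tissues in inflammation.

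On GRCm39 the alarmin genes neighbour each other on chromosome 3, where S100a8 (90567118 to 90578128, plus strand) ends 21.8 kb before S100a9 (90599931 to 90603071, minus strand). Camp (109676442 to 109678685), Ngp (110248815 to 110252086) and Ltf (110848339 to 110871835) lie on chromosome 9 within 1.2 Mb. Retnlg is on chromosome 16 (48692547 to 48694862) and Lcn2 on chromosome 2 (32274645 to 32278264). In the GENCODE annotation, 0 of the 7 genes overlapped another gene. C/EBP factors, which drive granule genes in developing neutrophils, bind paired half-sites related to TTGCGCAA. Sequences upstream of both alarmin genes and of Ltf and Ngp, the granule genes with the most counts in the T group apart from Lcn2, are shown because the shares of granule and alarmin counts given here rest mainly on these 4 genes. They are RefSeq windows of 250 bases before the start, placed on GRCm39 by exact match and printed up to the first annotated exon, and capitals mark matches to TTNCNNAA on either strand.
S100a8 (chr3:90576128-90576284, plus strand): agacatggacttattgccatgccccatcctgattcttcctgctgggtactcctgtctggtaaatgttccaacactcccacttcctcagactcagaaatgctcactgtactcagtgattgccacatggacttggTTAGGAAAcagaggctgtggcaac
S100a9 (chr3:90603072-90603278, minus strand): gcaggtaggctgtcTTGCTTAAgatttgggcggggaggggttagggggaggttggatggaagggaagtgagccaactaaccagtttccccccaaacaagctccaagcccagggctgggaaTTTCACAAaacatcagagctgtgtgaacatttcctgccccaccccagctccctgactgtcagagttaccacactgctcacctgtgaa
Ltf (chr9:110848110-110848338, plus strand): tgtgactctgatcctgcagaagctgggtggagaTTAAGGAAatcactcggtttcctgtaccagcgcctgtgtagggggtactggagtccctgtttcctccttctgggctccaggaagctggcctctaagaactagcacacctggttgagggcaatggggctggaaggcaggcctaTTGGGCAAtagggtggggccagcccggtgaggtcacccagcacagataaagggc
Ngp (chr9:110248626-110248814, plus strand): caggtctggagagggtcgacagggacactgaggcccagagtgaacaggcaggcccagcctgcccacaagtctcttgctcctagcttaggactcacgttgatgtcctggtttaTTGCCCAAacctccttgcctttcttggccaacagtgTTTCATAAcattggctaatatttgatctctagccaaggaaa
The printed S100a8 stretch lies within an intron of 1 longer annotated S100a8 transcript, and the other printed stretches lie outside their genes. The motif counts that follow use the full 250 bases. Those of Retnlg and Lcn2 lie wholly within the annotated genes, and each holds 1 match to TTNCNNAA and 1 to TTGCNNAA. Those of S100a9, Ltf, Ngp and Camp reach in part into their genes, so the counts are not of upstream bases alone. TTNCNNAA occurred in the windows of 6 of the 7 genes, against 36.8% of 32851 mouse windows of that length. The narrower TTGCNNAA, which every TTNCNNAA search also finds, occurred in 5 of 7 against 9.56%, and TTGCGCAA in 0 of 7 against 0.164%. A match describes these letters and shows no binding.

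The libraries held 35628211 to 37635741 counts, with 17631 to 18563 genes detected, and skeletal muscle genes stood at 67300 to 76700 FPKM in sum in every library, among them Acta1, the skeletal actin gene, and Ckm, the muscle creatine kinase gene. Levels are given in CPM, which are counts scaled to the same library size with edgeR's TMM factors, and 3 counts, taken as the smallest level a library can show, correspond to 0.076 to 0.0875 CPM. Lymph node and lymphocyte genes summed to 117 FPKM in TE4, 40 in E1 and 38.5 in C3, against 4.30 to 11 in the T mice, and results were also taken without those 3 libraries. Fewer cells of a type and less RNA per cell cannot be told apart in such bulk samples.

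Compared per gene length, S100a9 and S100a8 were the most abundant of the 7 genes in the tumor-bearing groups. S100a9 had a mean of 22.4 FPKM in the T group and 16.4 in the TE group, and S100a8 had 12.0 and 7.92. Lcn2 was next in both groups with 3.38 and 2.91 FPKM, followed by Retnlg with 1.81 and 1.23. Ngp (1.06 and 0.205 FPKM), Ltf (0.25 and 0.0248) and Camp (0.17 and 0.034) were the lowest. The T and TE ranges overlapped for each gene except Ltf. Summed over the 7 genes, the level was 7.49 ± 7.41 FPKM in the C group, 5.19 ± 3.27 in the E group, 41.1 ± 32.3 in the T group and 28.8 ± 8.14 in the TE group (SD, n = 4 mice each). T4 had 87.5 FPKM, and without it the T mean was 25.6, under that of the TE group, while without C1 the C mean was 4.09.

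**Figure D1:**
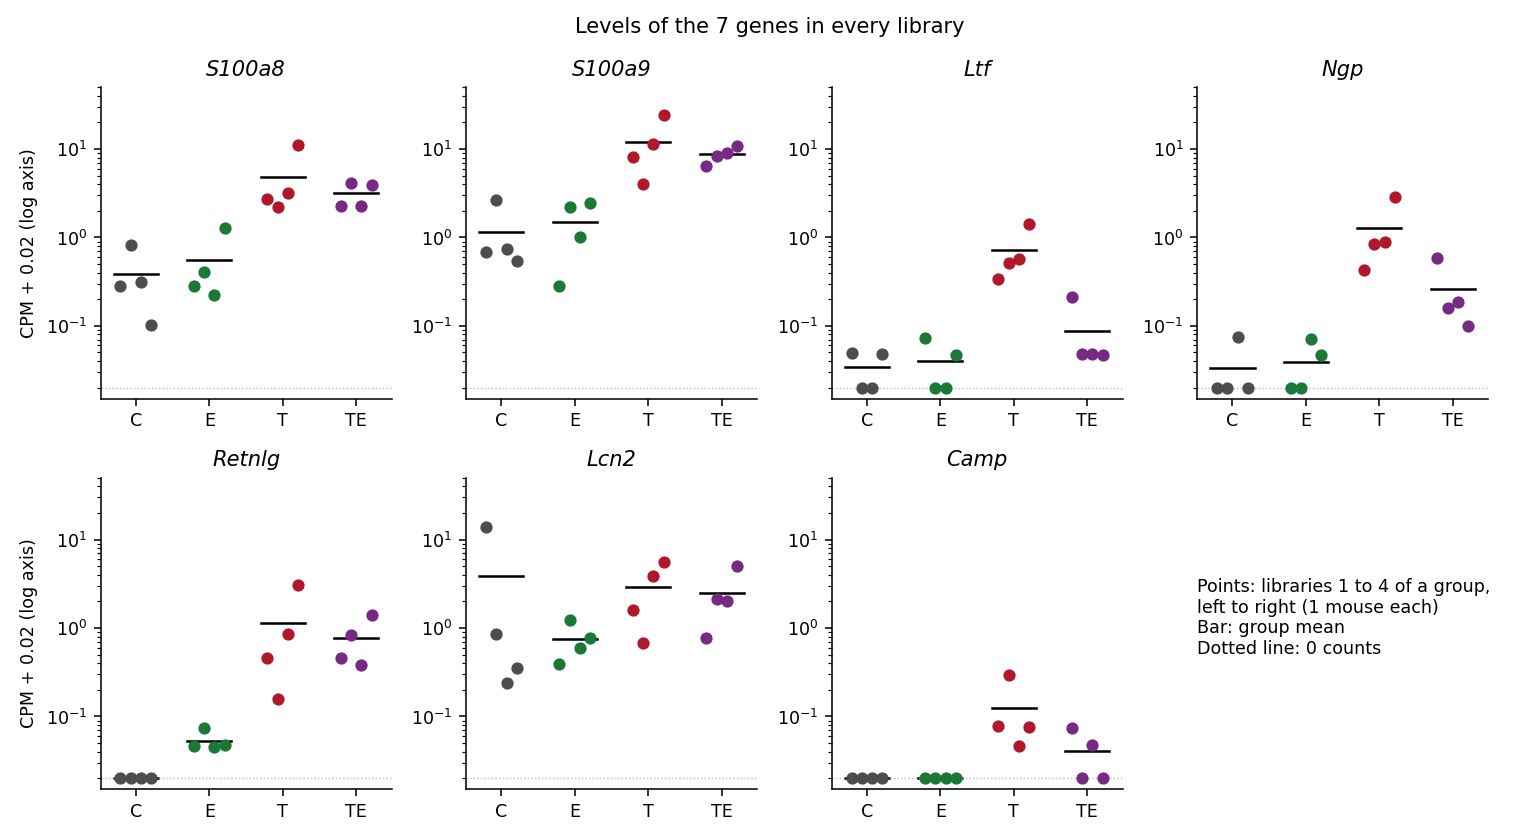
Each panel shows 1 gene, with CPM plus 0.02 on a log axis, the 4 groups on the x axis, a point per library and a bar at the group mean. S100a8, S100a9, Ngp and Retnlg are higher in all 8 tumor-bearing libraries than in all 8 tumor-free ones, Ltf is lower in every TE mouse than in the T mice and Ngp in 3 of 4, and C1 is the highest library for Lcn2.

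The alarmin genes were read first. S100a8 had 9, 30, 11 and 3 counts in the C mice, 10, 14, 8 and 47 in the E mice, 93, 80, 121 and 399 in the T mice and 83, 146, 82 and 146 in the TE mice. Between the 8 tumor-bearing and the 8 tumor-free libraries, S100a8, S100a9, Ngp and Retnlg did not overlap, beside 0.237% of all tested genes, and these libraries include those of the T and C groups. The lowest tumor-bearing library for S100a8, T2 at 2.21 CPM, stood above the highest tumor-free one, E4 at 1.27 CPM. T4 alone held more S100a8 counts than the other 3 T mice together. S100a9 had 23, 98, 27 and 19 counts in the C mice, 10, 81, 39 and 90 in the E mice, 279, 146, 433 and 876 in the T mice and 238, 302, 326 and 404 in the TE mice. Here too T2 (4.04 CPM) was the lowest tumor-bearing library and lay above C2 (2.63 CPM), the highest tumor-free one. The spread of both genes in the T group rested largely on T4. The coefficient of variation of S100a8 was 87.6% in the T group and 31.9% in the TE group, and that of S100a9 was 73.2% and 20.7%. Without T4 that of S100a8 in the T group was 18.1%, under that of the TE group, and that of S100a9 was 47.1%.

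Among the granule genes, Ltf and Ngp were nearly silent in tumor-free muscle. Ltf had 1, 0, 0 and 1 counts in the C mice, 2, 0, 0 and 1 in the E mice, 11, 18, 21 and 51 in the T mice, and 7, 1, 1 and 1 in the TE mice. All T mice lay above every other library, and the TE mice other than TE1 lay among the tumor-free mice. Ngp had 0, 0, 2 and 0 counts in the C mice, 0, 0, 2 and 1 in the E mice, 14, 30, 33 and 104 in the T mice, and 21, 5, 6 and 3 in the TE mice. Its groups by tumor status did not overlap, but the margin was 3 counts in TE4 against 2 in C3. Camp was listed at 0 in all 8 tumor-free libraries, at 2, 10, 1 and 2 counts in the T mice and at 2, 0, 1 and 0 in the TE mice, so that only T2 stood above the floor of 3 counts.

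Retnlg was listed at 0 in the 4 C mice, and had 1, 2, 1 and 1 counts in the E mice, 15, 5, 32 and 110 in the T mice, and 16, 29, 13 and 52 in the TE mice. The tumor-bearing and tumor-free mice did not overlap, with T2 lowest (0.138 CPM) against E2 (0.0546 CPM). Lcn2 had 481, 31, 8 and 12 counts in the C mice, 14, 44, 23 and 28 in the E mice, 55, 24, 148 and 200 in the T mice, and 28, 76, 72 and 189 in the TE mice. C1, at 14 CPM, was the highest of the 16 libraries for Lcn2, and the groups overlapped. C1 was not high for the other genes, with 9 S100a8 counts, 1 Ltf count and 0 of Retnlg.

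The TE group against the E group sets tumor-bearing against tumor-free mice among trained mice. Its 8 libraries are not those of the T and C groups, with which the genes were chosen, though earlier results of these data were known. All 6 tested genes had higher fitted means in the TE group, with log2 fold changes from 1.63 to 4.37 and a median of 2.56, beside a median of 0 over all 14749 tested genes. With Benjamini-Hochberg adjustment of edgeR's quasi-likelihood p-values, 0 of the 6 passed the threshold of an adjusted p under 0.05 with a fold change above 2, where 0.0475% of all tested genes passed in that direction. At an unadjusted p under 0.05, 4 of the 6 were higher, namely S100a8, S100a9, Retnlg and Ngp, where 3.7% of all tested genes were. Ltf and Ngp had 3 counts each in the E group and passed the filter through the T mice, in which the genes were chosen, and in a fit of the TE and E mice alone only S100a8, S100a9, Retnlg and Lcn2 passed it. Counts and medians over the 6 genes are therefore a description. S100a9 had a log2 fold change of 2.56 (SE 0.584, edgeR adjusted p = 0.0961). Retnlg had one of 4.37 (SE 0.972, edgeR adjusted p = 0.0982), and S100a8 one of 2.56 (SE 0.634, edgeR adjusted p = 0.122). Without E4, the highest E mouse for S100a8, that of S100a8 was 3.47 (SE 0.672, edgeR adjusted p = 0.0506), and with any 1 other TE or E mouse left out it was 2.29 to 2.69. In the fit of all libraries, S100a9, Retnlg and S100a8 ranked 59, 74 and 100 of 14749 by p-value. DESeq2, in place of edgeR, called these 3 genes, with adjusted p-values of 0.00204 for Retnlg, 0.0231 for S100a9 and 0.0346 for S100a8, where 0.18% of its genes passed, and it gave log2 fold changes of 4.50, 2.56 and 2.57. Without the filter on low counts edgeR also called these 3 (0.0713% of all genes), and with the TE and E mice fitted alone it called Retnlg and S100a9 (0.0704%).

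Ngp, with 35 counts in the TE group and 3 in the E group, gave a ratio of 12.1 (95% interval 3.81 to 61.4, counting error only) and an edgeR adjusted p of 0.247. TE1 held 21 of the 35 counts, and the log2 fold change of Ngp was 3.39, 2.51 without TE1 and 4.30 without E3. Ltf, with 10 counts against 3, gave a ratio of 3.45 (0.888 to 19.5) and an edgeR adjusted p of 0.676, and 7 of the 10 counts were from TE1, so that its log2 fold change of 1.63 was 0.41 without TE1 and 2.55 without E1. For Ngp and Ltf every E library was under the floor of 3 counts, so the size of these ratios is uncertain. Lcn2 had a log2 fold change of 1.77 (SE 1.04, edgeR adjusted p = 0.643), with TE1, at 28 counts, inside the E range, and it was 1.17 without TE4. In 4 of the 6 genes, S100a8, S100a9, Ngp and Retnlg, the TE and E libraries did not overlap, where 2.68% of all tested genes had every TE library above every E library, with the same limit for Ngp. For Camp no fold is given, since every library of both groups was under the floor of 3 counts.

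**Figure D2:**
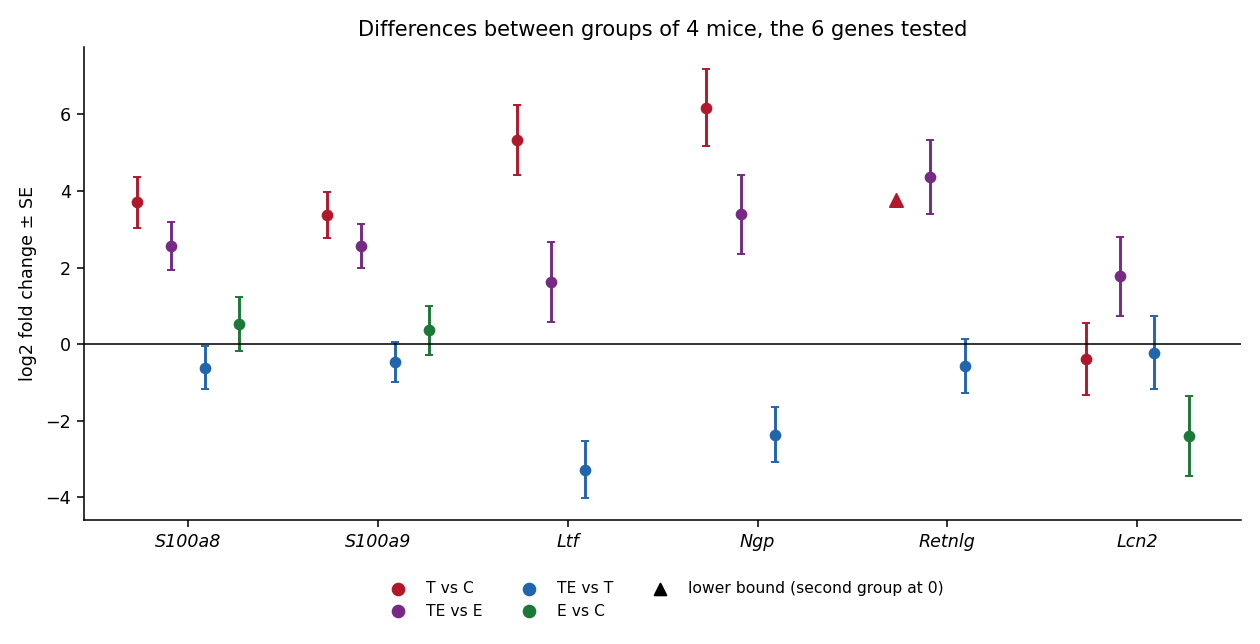
The y axis gives log2 fold changes from the edgeR fit with bars of 1 SE, the x axis the 6 tested genes, and the colors the 4 comparisons of 4 mice against 4, with a triangle for the lower bound of Retnlg in T vs C, where the C group held 0 counts, and no E vs C values for Ltf, Ngp and Retnlg. TE vs E lies above 0 for all 6 genes, Ltf and Ngp have the lowest TE vs T values (-3.28 and -2.36), and the fitted Ltf and Ngp values against C or E rest on 2 or 3 counts in those groups.

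The T group against the C group is the contrast with which the genes were chosen, so its values are a description. S100a8 was at 0.361 ± 0.31 CPM in the C group and 4.78 ± 4.18 in the T group (SD, n = 4), a log2 fold change of 3.70 (SE 0.667). S100a9 was at 1.14 ± 0.996 and 11.9 ± 8.72 CPM, a log2 fold change of 3.38 (SE 0.604). Against 2 counts in the C group, the 101 Ltf counts gave a ratio of 50.5 (13.6 to 423) and the 181 Ngp counts one of 90.5 (24.7 to 753). Without T4, which held 51 and 104 of these counts, the ratios were 33.3 and 51.3. For both genes every C library was under the floor of 3 counts, so the size of these ratios is uncertain. Retnlg, with 162 counts against 0, was at least 13.5-fold higher, a bound set against 3 counts in each C library, and at least 5.78-fold without T4, which held 110 of the counts. For Camp, with 15 counts against 0 and 10 of them from T2, no fold is given. Lcn2 went the other way, with a log2 fold change of -0.39 (SE 0.945), and without C1 it was 2.66 (SE 0.745). The threshold was passed by 5 of the 6 genes, beside 0.237% of all tested genes, and 5 of the 6 did not overlap between the groups, beside 4.03%. The count of 5 depended on single C mice, as it was 0 without C4, 2 without C3 and 3 without C3, E1 and TE4. Without C4 the log2 fold changes were 3.38 for S100a8 and 3.14 for S100a9, while over all genes 7 passed higher in place of 35. They were 2.88 and 2.77 without T4, and 4.46 and 4.21 without C2.

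Within tumor-bearing mice, trained against untrained, all 6 tested genes had log2 fold changes under 0, and those of Ltf and Ngp lay furthest from it. In the TE group against the T group, which shares the T libraries with the choice of the genes and is given with no test, the log2 fold change was -0.61 (SE 0.561) for S100a8, -0.46 (SE 0.52) for S100a9, -0.57 (SE 0.702) for Retnlg and -0.23 (SE 0.953) for Lcn2. It was -3.28 (SE 0.739) for Ltf and -2.36 (SE 0.715) for Ngp, and without TE1 -4.50 and -3.24. Whether these 2 differed from the other genes was not tested, and Lcn2, also a granule gene, lay with the alarmin genes. Of the 13 other tested genes of specific and gelatinase granules and the cytosol, 5 were higher and 8 lower, with a median of -0.18 and a range from -0.67 to 0.42. Ltf was the only one of the 6 genes with every TE library under every T library, beside 1.34% of all tested genes. The median over the 6 genes was -0.59, and without T4 it was 0.18, with S100a8 at 0.22, S100a9 at 0.15, Retnlg at 0.67 and Lcn2 at 0.28 above 0, and Ltf at -2.68 and Ngp at -1.53 still below it.

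Among tumor-free mice, trained and untrained, the alarmin genes overlapped. In the E group against the C group, which shares the C libraries with the choice of the genes, S100a8 had a log2 fold change of 0.53 (SE 0.706) and S100a9 one of 0.36 (SE 0.635). These values depended on single mice, as without E4 they were -0.37 and 0.00, and without C2 1.29 and 1.19. Lcn2 had one of -2.40 (SE 1.04), and without C1 it was 0.65 (SE 0.745). Retnlg had 5 counts against 0, with at most 2 in an E library and so under the floor of 3 counts, so that no fold is given, and Ltf and Ngp were at or under 3 counts in both groups.

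The balance between granule and alarmin transcripts was followed, with Lcn2 left out at first, as the counts of Ltf, Ngp and Camp as a percent of these plus the counts of S100a8 and S100a9 in the same library, with exact (Clopper-Pearson) 95% binomial intervals that cover counting error only. In the T mice the share was 6.77% (4.51 to 9.69), 20.4% (15.9 to 25.6), 9.03% (6.88 to 11.6) and 11% (9.39 to 12.7). In the TE mice it was 8.55% (5.84 to 12.0), 1.32% (0.487 to 2.85), 1.92% (0.834 to 3.75) and 0.722% (0.197 to 1.84). TE1 lay in the range of the T mice, and the intervals of the other 3 TE mice lay under those of all 4 T mice. Tumor-free libraries held 0 to 2 granule counts, so their shares of 0 to 9.09% had intervals reaching 2.84% to 29.2%. T2, which had the lowest S100a8 and S100a9 levels of the T group, had the highest share, while T4, with the highest alarmin levels, was in the middle. With Lcn2 among the granule counts, a choice made after the data were seen, the share was 18.1% to 26.8% in the T mice and 15.3% to 26.0% in the TE mice, and the groups overlapped through TE4 alone. TE1, TE2 and TE3, at 15.3%, 15.5% and 16.4%, lay under every T mouse, and TE4, at 26.0%, lay in the T range.

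**Figure D3:**
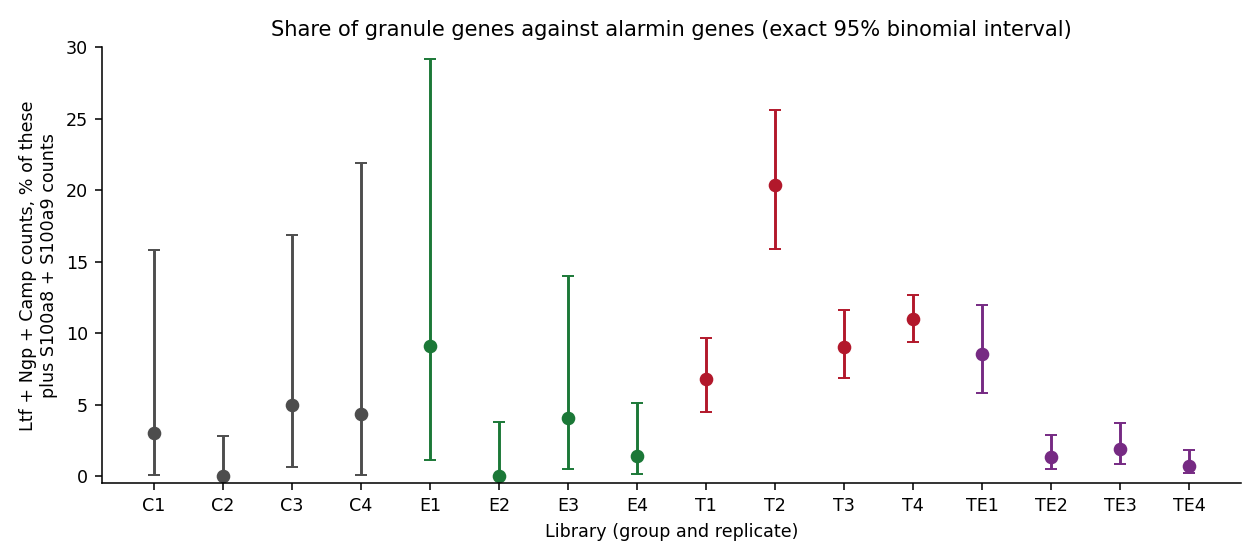
The y axis gives the counts of Ltf, Ngp and Camp as a percent of these plus the S100a8 and S100a9 counts, the x axis the 16 libraries, and bars are exact 95% binomial intervals. T2 is highest at 20.4%, TE1 at 8.55% lies among the T mice, and TE2, TE3 and TE4 lie between 0.722% and 1.92%.

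The balance within the calprotectin pair differed less. S100a8 made up 21.8% to 35.4% of the S100a8 and S100a9 counts in the T mice and 20.1% to 32.6% in the TE mice. In the C mice it was 13.6% to 28.9% and in the E mice 14.7% to 50%, where E1 had 10 counts of each gene. On the FPKM scale, which allows for gene length, S100a9 exceeded S100a8 in 15 of 16 libraries, by 1.37 to 4.74 times, and in E1 the ratio was 0.748. Retnlg had 2.21 to 8.63 counts per 100 alarmin counts in the T mice and 3.19 to 9.45 in the TE mice, and Lcn2 had 10.6 to 26.7 and 8.72 to 34.4, so that both overlapped. In the tumor-free mice Lcn2 had 1500 counts per 100 alarmin counts in C1 and 20.4 to 70.0 in the other libraries.

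The genes did not order the libraries alike. T4 was highest of the 16 for S100a8, S100a9, Ltf, Ngp and Retnlg, and among the top 3 for all 7 genes. TE4 was among the top 3 for 4 genes, S100a8, S100a9, Retnlg and Lcn2, yet had the lowest Ngp level of the tumor-bearing mice. TE1 had the highest Ltf, Ngp and Camp levels of its group and the lowest S100a9 and Lcn2 levels. For S100a8, TE1 (2.25 CPM, 83 counts) and TE3 (2.27 CPM, 82 counts) were nearly equal and lowest in that group. T2 was the lowest T mouse for S100a8, S100a9, Retnlg and Lcn2 and the highest of all 16 libraries for Camp.

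Co-variation among the 7 genes was measured after the group means were removed, as correlations over the 16 libraries of the deviations of log2 CPM from the mean of the library's group, with all 331776 permutations within groups (exact permutation test, two-sided) and Benjamini-Hochberg adjustment over the 21 pairs. Of the pairs, 15 had a Pearson r above 0 and 6 below, and 0 passed an adjusted p under 0.05 by Pearson or Spearman correlation, while 6 pairs by Pearson and 8 by Spearman had an unadjusted p under 0.05. S100a8 and S100a9 had an r of 0.78 (exact permutation p = 0.00739, adjusted 0.0513) and a rho of 0.75 (exact permutation p = 0.00864, adjusted 0.0847), and r was 0.66 without T4 and E4, the libraries whose S100a8 deviations lay farthest from the median deviation. Retnlg had an r of 0.55 with S100a8 (exact permutation p = 0.00861, adjusted 0.0513; rho 0.60, p = 0.0131, adjusted 0.0847) and 0.55 with S100a9 (exact permutation p = 0.00977, adjusted 0.0513; rho 0.53, p = 0.0333, adjusted 0.117). Without the libraries whose deviations lay farthest from the median deviation of S100a8 (T4 and E4) and of S100a9 (E1 and C2), these were 0.39 and 0.85. Retnlg and Lcn2 had an r of 0.49 (exact permutation p = 0.00477, adjusted 0.0513; rho 0.62, p = 0.0161, adjusted 0.0847) and 0.37 without T4 and T2.

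Ltf and Ngp had an r of 0.70 (exact permutation p = 0.0411, adjusted 0.144; rho 0.50, p = 0.0957, adjusted 0.183). It was -0.07 without TE1 and T4, 0.51 without T4 alone and 0.54 without TE1 alone. With a prior count of 0.5 in place of 2 it was 0.26 (exact permutation p = 0.401, adjusted 0.608), and with log2(FPKM + 1) it was 0.98 (exact permutation p = 0.0139, adjusted 0.0583). The value thus depended on those libraries and on the scale. Between granule and alarmin genes, r was 0.17 for S100a8 and Ltf (exact permutation p = 0.546, adjusted 0.714; rho 0.04, p = 0.876, adjusted 0.902) and 0.25 for S100a8 and Ngp (exact permutation p = 0.392, adjusted 0.687; rho 0.15, p = 0.618, adjusted 0.865), and they were -0.39 and -0.27 without T4 and E4. For S100a9 the r was -0.06 with Ltf (exact permutation p = 0.818, adjusted 0.818; rho -0.27, p = 0.308, adjusted 0.538) and 0.19 with Ngp (exact permutation p = 0.501, adjusted 0.714; rho 0.12, p = 0.683, adjusted 0.897), and without E1 and C2 these were 0.34 and 0.23. Camp, with at most 10 counts in a library, had an r of -0.45 with Lcn2 (exact permutation p = 0.0174, adjusted 0.0729; rho -0.55, p = 0.0104, adjusted 0.0847), and -0.75 without C1 and C3. Without T2, the only library with Camp above the floor of 3 counts, that r was -0.32 (exact permutation p = 0.125, adjusted 0.438). With log2(FPKM + 1) in place of log2 CPM, 4 pairs passed the adjusted threshold by Pearson correlation, S100a8 with S100a9 (0.82), Retnlg with S100a8 (0.74) and with S100a9 (0.64), and Retnlg with Lcn2 (0.50). On that scale Ltf and Ngp had an r of 0.62 and 0.56 with S100a8 and of 0.45 and 0.42 with S100a9 (exact permutation, adjusted p = 0.383 for the first pair of values and 0.421 for the second). The same 4 pairs passed with log2 CPM without E4. In the 8 tumor-bearing mice alone 3 pairs passed, Ltf with Ngp (0.98), S100a8 with Retnlg (0.93) and S100a9 with Lcn2 (0.89). Low counts limit these values, since Ltf, Ngp, Retnlg and Camp vary little within the tumor-free groups.

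**Figure D4:**
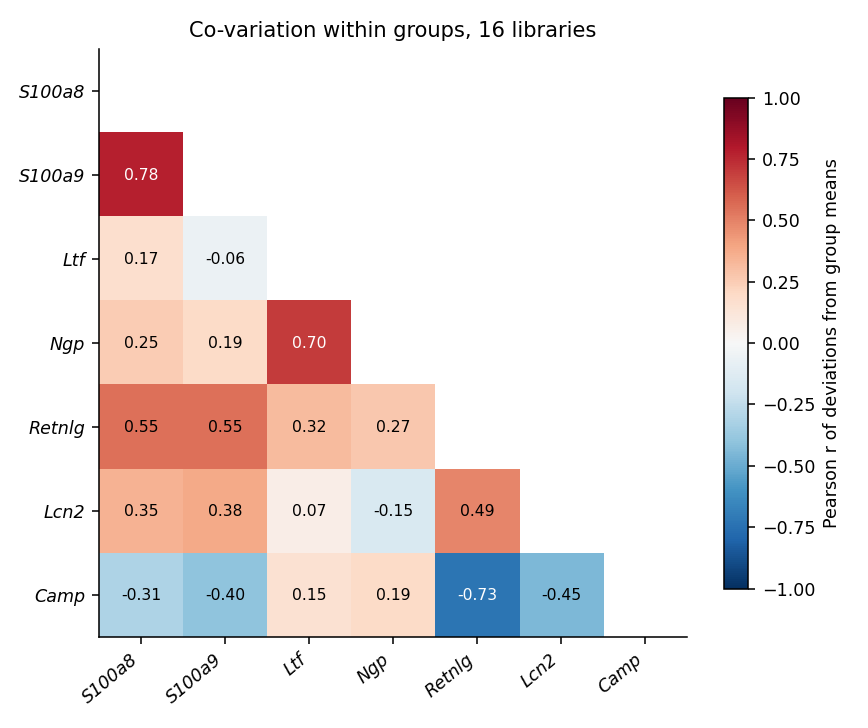
Each cell gives the Pearson r of a pair of the 7 genes over 16 libraries, from deviations of log2 CPM from the group means, with red above 0 and blue below. S100a8 with S100a9 is highest at 0.78 and Retnlg with Camp lowest at -0.73.

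S100a8 was set against the summed FPKM of 5 lists of markers of other cells in the same way, and 0 of the 5 relations had an unadjusted or adjusted p under 0.05 by exact permutation, with r from 0.05 for macrophage and monocyte genes to 0.31 for platelet genes and adjusted p-values of 0.868 (rho from -0.07 to 0.19, adjusted p = 0.855). Without T4 and E4 the r was higher for each list, at 0.47 for macrophage and monocyte and for platelet genes, 0.41 for erythroid, 0.32 for lymph node and 0.13 for eosinophil, mast cell and basophil genes. Over the groups, erythroid genes did move with tumor status. They summed to 362 to 529 FPKM in the C mice, 393 to 582 in the E mice, 736 to 823 in the T mice and 864 to 1270 in the TE mice, and 0 of the 10 listed genes was at 0 in all libraries. In the TE group against the E group, 3 of the 7 tested erythroid genes passed the threshold higher by edgeR's test, where 0.0475% of all tested genes did. They were Alas2, the first enzyme of heme synthesis in red cells (log2 fold change 1.23, adjusted p = 0.000775), and the globin genes Hba-a2 (1.17, adjusted p = 0.00746) and Hbb-bt (1.20, adjusted p = 0.0124), whose counts can be shared with their paralogs. Hbb-bs (0.99, adjusted p = 0.00425) and Hba-a1 (1.00, adjusted p = 0.00698) also had an adjusted p under 0.05 and were just under the fold threshold. Whether the blood content of the muscle had a part in the levels of the 7 genes was not tested.

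Macrophage and monocyte genes summed to 23.1 to 51.2 FPKM in the tumor-free mice and 40.5 to 65.7 in the tumor-bearing mice, and 0 of 10 passed the edgeR threshold in the TE group against the E group, with 0 of 10 at an unadjusted p under 0.05, while 8 were higher and 2 lower with a median of 0.32. C1qa and C1qc, the complement genes with the highest levels among them, had log2 fold changes of 0.44 and -0.06, the latter being one of the 2 lower genes. In the T group against the C group, 9 of the 10 were higher and 1 lower, with a median of 0.74, and 0 passed by edgeR. There 5 had an unadjusted p under 0.05, beside 2093 of all 14749 tested genes. Platelet genes summed to 4.44 to 8.59 FPKM in all libraries. In the TE group against the E group, 0 of 3 tested platelet genes passed the threshold, and Pf4 and Ppbp, genes of platelet chemokines, had values of -0.29 and 0.02. Of the mast cell, eosinophil and basophil genes, 0 of 4 tested passed and all 4 were lower in the TE group, such as the mast cell protease genes Mcpt4 (-1.05) and Tpsb2 (-0.80). An unadjusted p under 0.05 by edgeR was reached by 3 of the 4, beside 1361 of all 14749 tested genes. The E group stood highest, as the list summed to means of 7.32 FPKM in the C, 15.5 in the E, 8.78 in the T and 7.61 in the TE mice. Of the lymph node genes 0 of 10 passed, and Glycam1 had 1023 counts in TE4 and 0 in the other 7 tumor-bearing libraries, while Ccl21a, which encodes a lymph node chemokine, had a log2 fold change of -0.17. Without C3, E1 and TE4, 0 of the 6 alarmin and granule genes passed in the TE group against the E group, as with them.

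Other genes of neutrophils were read from 3 lists of 54 genes in all, of which 53 were in the tables and 24 were tested. In the TE group against the E group, 21 were higher and 3 lower, the median being 0.73 on the log2 scale. By edgeR 0 of 24 passed the threshold, beside 0.0746% of all genes in either direction. An unadjusted p under 0.05 was reached by 7 of the 24, beside 1361 of all 14749 tested genes, and among those 7 Anxa1 was lower. DESeq2 called 2 of the listed genes, Csf3r, the receptor of granulocyte colony-stimulating factor, and Il1b, the gene of interleukin 1 beta. Over all genes it called 27 higher and 31 lower of 15035. In the T group against the C group, 20 were higher and 4 lower with a median of 0.67, and 0 passed by edgeR. An unadjusted p under 0.05 was reached by 8, beside 2093 of all 14749 tested genes. There DESeq2 called 4, Csf3r, Ifitm6, Il1b and Mmp9, edgeR without the filter called Ifitm6, and edgeR without T2 called Csf3r, Ifitm6 and Il1b. Over all genes these fits called 82 higher and 25 lower of 15035, 55 and 9 of 23837, and 71 and 19 of 14983, in that order. In this paragraph and those on granule and on recruitment genes that follow, the genes other than Prtn3, Ctsg, Lyz2, Anxa1, G0s2, Wfdc17, Cebpb, Cebpd, Bsg and Cd36 were chosen after their values were seen, Sele, Selp, Cebpe and Tlr4 among them. Csf3r had 25 to 50 counts in the C mice, 19 to 58 in the E mice, 61 to 148 in the T mice and 64 to 110 in the TE mice, with no overlap by tumor status. Cxcr2, the chemokine receptor of mature neutrophils, had 2 to 19, 6 to 18, 14 to 55 and 19 to 90 counts in that order of groups, and Il1b had 4 to 19, 6 to 20, 15 to 73 and 24 to 75. In the TE group against the E group their log2 fold changes were 1.33 (SE 0.347, edgeR adjusted p = 0.143), 2.13 (SE 0.674, edgeR adjusted p = 0.282) and 2.03 (SE 0.596, edgeR adjusted p = 0.223).

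Among other granule genes of the list for specific and gelatinase granules and the cytosol, 13 were tested. Against the E group, the TE group was higher in 11 of them and lower in 2, and the median was 0.68. Mmp8, a granule collagenase gene, had 13 to 40 counts in the TE mice and 0 to 10 in the E mice (log2 fold change 1.84, SE 0.94, edgeR adjusted p = 0.577), and 89 counts in T4 against 3 to 17 in the other T mice. Lyz2 and Anxa1, at the highest levels of that list and also expressed in other cells, had log2 fold changes of 0.03 and -0.47. Of the list for mature neutrophils, 10 were higher and 1 lower with a median of 1.33, and its most abundant genes, G0s2, which adipocytes also express, and Wfdc17, had values of -0.02 and 0.78. Of the 7 genes of the azurophil granules, which are made earliest in the marrow, 0 had enough counts for the test. Elane and Ms4a3 were listed at 0 in all 16 libraries, Mpo had 0 to 2 counts and Ctsg at most 5, and Prtn3 had 1, 7, 16 and 4 counts in the TE mice, 0, 1, 9 and 2 in the T mice and 0 to 2 in the tumor-free mice. Ly6g, a surface marker of mouse neutrophils, had 0 to 5 counts per library and was at 0 in all E and TE mice.

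Of the genes that call neutrophils to tissue or drive their formation, 7 of 7 tested had a log2 fold change above 0 in the TE group against the E group (median 0.99, range 0.31 to 4.68), and 0 passed by edgeR while 6 had an unadjusted p under 0.05. Over all 14749 tested genes, 7491 lay above 0 and 1361 had an unadjusted p under 0.05 in either direction. This list too was chosen with earlier results known, so its counts are a description. Sele, the endothelial adhesion molecule E-selectin, had 1 count in each C mouse, 0, 1, 7 and 1 in the E mice, 15, 10, 34 and 99 in the T mice and 7, 8, 31 and 191 in the TE mice (log2 fold change 4.68, SE 1.14, edgeR adjusted p = 0.114). Like S100a8, Sele was highest in T4 among the T mice, and like Retnlg it was highest in TE4 among the TE mice. Selp, which encodes P-selectin, was at 6.16, 9.05, 10.7 and 51.2 CPM in the TE mice and 3.41 to 5.10 in the E mice (log2 fold change 2.12, SE 0.547, edgeR adjusted p = 0.137). TE4 carried much of both values, and it is the library that stood apart in lymph node genes, whose part was not tested. Without TE4, an alternative added after the data were seen, the log2 fold change was 2.78 (SE 0.944, edgeR adjusted p = 0.421) for Sele and 0.97 (SE 0.344, edgeR adjusted p = 0.446) for Selp. Cebpb and Cebpd, genes of C/EBP factors with the highest levels of that list, had values of 0.31 and 0.89. Cebpe, the C/EBP gene of granule formation, had 0 to 4 counts per library. Of the receptors and partners of the 7 proteins, 9 were tested, 0 passed, and 3 were higher and 6 lower, with Bsg (0.07) and Cd36 (-0.02) the most abundant. Tlr4, the calprotectin receptor gene, had a log2 fold change of -0.14, and in the T group against the C group one of 0.87 (SE 0.207, edgeR adjusted p = 0.0652).

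**Figure D5:**
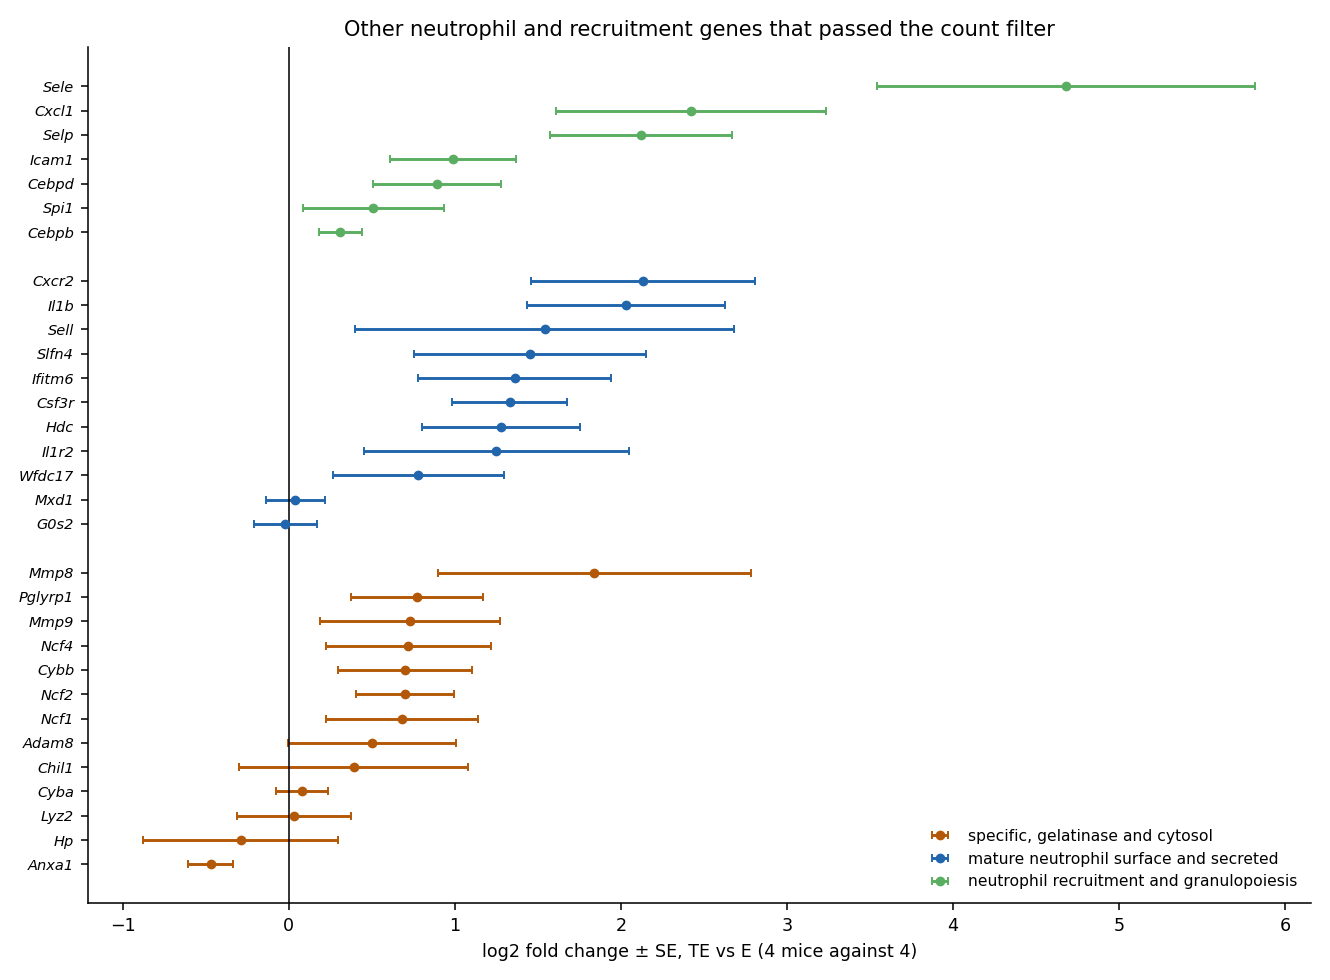
The x axis gives the log2 fold change of the TE group against the E group with bars of 1 SE, from edgeR with 4 mice each, for the tested genes of 2 neutrophil lists and the recruitment list. Sele (4.68), Cxcl1 (2.42), Cxcr2 (2.13) and Selp (2.12) lie highest, and 28 of 31 genes lie above 0.

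The pattern of the 7 genes over all 16 libraries was summarised by the mean of the standardised log2 CPM of the 6 tested genes, and the 10 other genes with the highest Pearson r with it are given as a description. They were Sbno2 (0.932), Osmr (0.90), Lrg1 (0.90), Stat3 (0.883), Grrp1 (0.883), Ifitm6 (0.882), Actr1b (0.873), Ccr1 (0.871), Alas2 (0.865) and Csf3r (0.86). Their libraries share the tumor and tumor-free groups. Osmr encodes the oncostatin M receptor, and Stat3 the transcription factor downstream of the interleukin 6 family. Lrg1 had 496 to 559 counts in the E mice and 821 to 1375 in the TE mice and rose by a log2 fold change of 1.03 (SE 0.138, edgeR adjusted p = 0.00425). Grrp1 rose by 1.02 (edgeR adjusted p = 0.0452), and Osmr, at 0.94 (edgeR adjusted p = 0.00698), was under the fold threshold.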

How the data were processed

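Gastrocnemius RNA of 16 mice was sequenced (groups C, E, T and TE, 4 mice each), and the labels gave each sample's group and replicate number. The submitters' processing notes name fastp 0.20.1, HISAT2 2.1.0, HTSeq 0.11.2, DESeq2 and GRCm39. The authors deposited raw counts per gene and FPKM values, which are those counts per gene length and library total. Strand setting and annotation release are not given in the sources used here, and the paper and the labels name different versions of the library kit. Library totals were 35628211 to 37635741 counts.

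Counts were tested with edgeR 4.0.16 (R 4.3.3) in 1 quasi-likelihood fit of all 16 libraries, with TMM factors, filterByExpr and 1 coefficient per group. P-values are two-sided and Benjamini-Hochberg adjusted over the 14749 tested genes, and a gene passed when its adjusted p was under 0.05 and its fold change over 2 or under 0.5. On simulated counts for the TE vs E comparison over 14749 genes, 181 of 200 genes given a log2 change of 2 in size were recovered (90.5%), with 5 false calls. The p-values measure the spread between these mice. Correlations used log2 CPM with a prior count of 2.

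The 7 genes and all gene lists were chosen with earlier results of these data known. Genes named are the 7 genes, list genes past the threshold in TE vs E or T vs C (where none passed, the 2 with the highest mean FPKM), and the 10 genes most like the 7, besides those said to be chosen after their values were seen. Alternatives were DESeq2 1.42.0, DESeq2's size factors, no filter, a fold change of 1.5, the compared groups alone, the replicate number as a block, each replicate left out, other scales and prior counts for correlations, and, added after seeing the data, the fit without C3, E1 and TE4, the selectin genes without TE4, group values of the 7 genes without each replicate, and Lcn2 counted with the granule genes. Positions come from GENCODE on GRCm39 and upstream sequences from RefSeq. Protein sequences were not used here. Figures were drawn with matplotlib 3.10.9.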

Additional observations from a re-analysis of the deposited data

Results flagged for a closer look

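In groups of 4, a library was picked out when its gap to the nearest other library, as a share of the group's range, exceeded Dixon's 95% critical value. This held in 8 of 25 groups of a gene with any counts, and the rate of about 1 in 20 that chance gives holds for normally distributed values, which counts as low as several of these are not, so that the number is not set against it. Alarmin genes stood apart in T4 for S100a8 (11 CPM, 399 counts), in E4 for S100a8 (1.27 CPM, 47 counts) and in C2 for S100a9 (2.63 CPM, 98 counts). Granule genes stood apart in C1 for Lcn2 (14 CPM, 481 counts), in TE1 for Ltf (0.19 CPM, 7 counts), in T2 for Camp (0.276 CPM, 10 counts) and in C3 for Ngp (0.054 CPM, 2 counts). Retnlg stood apart in E2 (0.0546 CPM, 2 counts). The Ngp and Retnlg values are under the floor of 3 counts. In T4 the embryonic myosin gene Myh3, which is not one of the 7 genes and was chosen after its values were seen, had 2588 counts, where T1 to T3 had 78 to 289, and its part in the S100a8 level of T4 was not tested.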

How the results depend on the processing

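In the TE group against the E group, 0 of the 6 alarmin and granule genes passed by edgeR, and 12 of 15 alternatives also gave 0. The exceptions were DESeq2 (3 genes), no filter on low counts (3) and the compared groups fitted alone (2, where Ltf and Ngp did not pass the filter). In each alternative all tested genes kept a log2 fold change above 0. Of the other neutrophil genes 0 passed, and DESeq2 called 2. With the replicate number as a block, 0 of the 6 genes and 0 other neutrophil genes passed. Numbers did not pair the mice, as same-numbered libraries of different groups correlated between -0.24 and 0.21 in their deviations and 5 of 24 pairs were over 0.1. The median of T vs C was 4.52, or 3.73 with Retnlg at its lower bound, and 3.81 to 4.74 with a replicate left out, and that of TE vs T -0.95 to 0.18 around -0.59, turning to 0.18 without T4, whose levels of S100a8, S100a9 and Retnlg are the highest. The number of correlated pairs past an adjusted p under 0.05 was 0, and 4 with log2(FPKM + 1), 3 in tumor-bearing mice only, and 0 to 4 with a replicate left out, with 4 without E4 and 1 each without C1 and E1. Over all genes, TE vs E gave 7 higher and 4 lower genes by edgeR, 27 and 31 by DESeq2, 17 and 10 with no filter, 10 and 11 with the compared groups alone and 16 and 15 at a fold change of 1.5. The causes of these differences were not tested. Counts were at most 10 in a library for Camp, 7 for Ltf outside the T group and 2 for Ngp in tumor-free mice, which limits their precision.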

Other observations

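Some genes of the recruitment list were high in single TE mice. Csf3, which encodes granulocyte colony-stimulating factor, had 0, 1, 8 and 29 counts in TE1 to TE4, 2 in T4, 1 in C4 and 0 in the other 10 libraries. Cxcl1, a neutrophil chemokine gene, had 10, 36, 20 and 113 counts in TE1 to TE4, 2 to 36 in the T mice and 2 to 34 in the tumor-free mice. Cd177, a surface and granule gene of neutrophils, had 4 to 38 counts in the T mice and 1 to 10 in the TE mice, and 0 to 5 in the tumor-free mice. Olfm4, a granule gene of a subset of neutrophils, had at most 8 counts, in T4. These genes were chosen after their values were seen, and their part in the levels of the 7 genes was not tested.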
